A study of Rattus norvegicus with 8 samples.

Results

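CpG-dense tiles are 1000-base windows of the rat genome in which bisulfite sequencing measured at least 21 CpG dyads, a dyad being a CpG with its 2 strands combined. They were chosen by counting: on chromosomes 1 to 20, a dyad was kept where each of the 8 libraries had at least 10 calls on it, and every fixed tile holding 21 or more kept dyads became a member, whatever its methylation. This gave 4743 tiles, 3.44% of the 137842 autosomal tiles with a kept dyad, and they held 145298 of the 761556 kept dyads (19.1%). The libraries were made from genomic DNA of male Sprague Dawley rats that were 2 months old when they were assigned to a diet with the omega-3 fatty acid DHA, which they ate for 6 weeks; 4 libraries came from hippocampus, the fold of cortex used in forming memories, and 4 from hypothalamus, the regulator of feeding and hormones. The labels of all 8 libraries name the DHA diet, although the protocol text they share also mentions fructose, so hippocampus and hypothalamus are the 2 groups compared, and the chow-fed animals of the same design were not analysed here. The labels name no animals, so every p-value measures the spread between libraries. The dissection cannot be checked here by marker expression, because the 8 libraries measure only methylation. In bulk tissue, a different mix of cell types and a different methylation within a cell type cannot be told apart.

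CpG islands are stretches in which CpGs escaped the loss that depleted them elsewhere in vertebrate genomes, where methylated cytosine mutates readily to thymine. Most lie at promoters, chiefly of widely expressed and developmental genes, and are kept free of methylation in nearly all tissues, partly by proteins that bind unmethylated CpG. A minority are methylated: those of germline genes are silenced in somatic cells, and imprinted islands carry methylation on the copy inherited from 1 parent. The library method, reduced representation bisulfite sequencing, cuts at CCGG sites and therefore samples such stretches densely. In it, an unmethylated cytosine is read as thymine and a methylated one as cytosine, so a level is the percentage of calls at a position, or summed over a tile, that were methylated.

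The span of states in CpG-dense tiles is shown by 5 promoters identified by sequence, taken from RefSeq (build GRCr8). Each line is the 250 bases before the gene's start, read on the + strand. Capitals mark the CpGs measured in all 8 libraries. Srsf6 (Gene ID 362264) lies in a window at chr3:172008822-172009121, Tdrd1 (Gene ID 292129) at chr1:265880775-265881074, Tmprss12 (Gene ID 100362912) at chr7:133312056-133312355, Lep (Gene ID 25608) at chr4:58626288-58626587 and Col16a1 (Gene ID 366474) at chr5:147672846-147673145; each window is 300 bases, 50 of them past the start, which are not printed. Srsf6 shows the common unmethylated state, Tdrd1 the methylated exception, Tmprss12 and Lep the partial state, and Col16a1 a promoter with unequal levels between the tissues.
Srsf6: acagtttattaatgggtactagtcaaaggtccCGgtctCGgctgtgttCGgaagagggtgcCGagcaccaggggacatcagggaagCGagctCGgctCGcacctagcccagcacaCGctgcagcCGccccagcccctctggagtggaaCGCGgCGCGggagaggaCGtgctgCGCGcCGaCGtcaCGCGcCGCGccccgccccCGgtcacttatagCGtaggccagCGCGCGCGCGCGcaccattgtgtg
Tdrd1: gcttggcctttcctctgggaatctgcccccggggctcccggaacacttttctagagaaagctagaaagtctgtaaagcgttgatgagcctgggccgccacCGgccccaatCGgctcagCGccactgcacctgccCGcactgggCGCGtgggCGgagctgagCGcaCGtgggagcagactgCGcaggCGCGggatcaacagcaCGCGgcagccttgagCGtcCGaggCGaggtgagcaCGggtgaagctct
Tmprss12: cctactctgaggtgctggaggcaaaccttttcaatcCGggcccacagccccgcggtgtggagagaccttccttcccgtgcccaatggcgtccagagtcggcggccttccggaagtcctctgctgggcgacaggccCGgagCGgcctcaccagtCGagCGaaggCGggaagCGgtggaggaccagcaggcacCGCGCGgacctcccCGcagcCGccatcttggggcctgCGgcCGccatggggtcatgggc
Lep: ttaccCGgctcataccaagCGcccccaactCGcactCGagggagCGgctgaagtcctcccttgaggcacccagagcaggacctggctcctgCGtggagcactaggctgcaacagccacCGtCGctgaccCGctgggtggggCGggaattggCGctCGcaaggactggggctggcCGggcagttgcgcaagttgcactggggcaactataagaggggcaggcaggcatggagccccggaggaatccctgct
Col16a1: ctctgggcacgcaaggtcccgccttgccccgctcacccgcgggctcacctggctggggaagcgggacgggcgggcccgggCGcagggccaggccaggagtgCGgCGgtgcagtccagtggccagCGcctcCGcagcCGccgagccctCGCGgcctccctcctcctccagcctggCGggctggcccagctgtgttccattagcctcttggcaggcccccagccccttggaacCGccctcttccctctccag

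Srsf6, which encodes a splicing factor, had 30 measured CpGs in the printed stretch, and their means over the 8 libraries ran from 0.198% to 2.40% with a median of 0.975%. Tdrd1 encodes a tudor-domain protein of the germ cell pathway that silences transposons. Of its 18 measured CpGs in the printed stretch, 17 had means between 80.2% and 97.4%, while the CpG at base 111, counted from 1 at the 5′ end, had 21.4% in hippocampus and 15.1% in hypothalamus. A base that is T in these animals would also be read as unmethylated, and this was not tested. Tmprss12, a transmembrane serine protease gene, had 14 measured CpGs there, between 25.6% and 76.9%. Lep, the gene of the satiety hormone leptin, had 13, between 25.9% and 67.4%. Nearby CpGs of Lep differed in both tissues: at bases 20, 31, 37 and 45 the levels were 68.9%, 39.6%, 26.8% and 58.3% in hippocampus and 65.9%, 46.5%, 39.2% and 59.6% in hypothalamus. Col16a1, which encodes a chain of collagen XVI, was higher in hypothalamus at all 10 CpGs measured in the printed stretch, with hippocampal means of 0.556% to 6.25% and hypothalamic means of 8.19% to 24.2%.

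Methylation fell steeply with the number of measured CpGs in a tile. The mean tile level was 74.5% in hippocampus and 76.3% in hypothalamus for tiles with 1 or 2 kept dyads, 72.6% and 74.7% for 3 to 5, 62.9% and 64.9% for 6 to 10, and 33.1% and 33.98% for 11 to 20. Inside the CpG-dense class it went on falling, to 7.82% and 7.61% for 21 to 30 dyads (2961 tiles), 3.44% and 3.06% for 31 to 40 (1130 tiles), and 2.89% and 2.35% for 41 to 97 (652 tiles). The share of tiles under 5% rose over these 3 groups from 80.6% to 89.3% and 93.3%. Tiles on either side of the bound were alike in description: the 481 tiles with 20 dyads had a median of 1.47% and the 451 with 21 dyads a median of 1.51%.

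**Figure D1:**
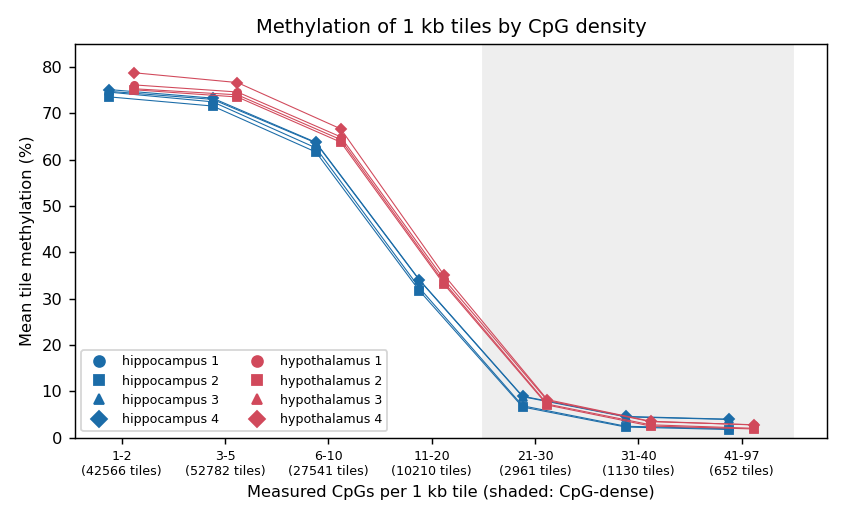
Mean methylation of 1 kb tiles (vertical axis, %) in classes of the number of measured CpGs per tile (horizontal axis), 1 point per library, with lines joining each library's points. All 8 libraries fall from above 70% in the sparsest tiles to below 10% in the shaded CpG-dense classes, and the libraries of both tissues lie close together there.

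Summed over all their calls, CpG-dense tiles stood at 5.07%, 4.72%, 7.0001% and 7.01% in hippocampus replicates 1 to 4 and at 5.90%, 4.85%, 5.41% and 6.02% in hypothalamus replicates 1 to 4. Hippocampus replicates 3 and 4 were the highest, and the groups overlapped. The other 90533 tiles with at least 3 kept dyads had 56.6% ± 1.55 against 5.75% ± 0.901 in CpG-dense tiles (SD, n = 8 libraries). The difference of -50.9 percentage points was in the same direction in 8 of 8 libraries (two-sided exact sign-flip permutation test, p = 0.00781, the smallest it can give). Against the nearest class, tiles with 11 to 20 dyads at 29.2% ± 1.52, the difference was -23.4 points (same exact test, p = 0.00781, 8 of 8 libraries). Both statements are partly about sampling, since tiles were classed by CpGs measured in every library and not by all CpGs in the genome.

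Most CpG-dense tiles were unmethylated, and the rest were spread over every other level. Of the 4743 tiles, 4003 (84.4%) had a mean level under 5%, 448 (9.45%) had 5% to 20%, 176 (3.71%) had 20% to 80%, 91 (1.92%) had 80% to 95% and 25 (0.527%) had 95% or more. In the other tiles the corresponding shares were 11.4%, 4.42%, 33.7%, 43.4% and 7.04%. The members with more methylation were less crowded: the median number of dyads went from 28 under 5% to 26, 25, 24 and 21 in the successive classes, and the median spacing of neighbouring dyads from 8 bases to 11, 13, 15.5 and 13. Single dyads showed the same split, with 87.9% of those in CpG-dense tiles under 5% and 2.06% over 80%, against 21.2% and 45.6% in other tiles. In the tiles under 5%, a bound on the mean that leaves few dyads free to be high, 303 of 124955 dyads (0.242%) reached 20%, and these lay in 192 of the 4003 tiles.

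CpG-dense tiles stood mostly alone, with 3913 isolated tiles, 363 runs of 2 kb, 29 of 3 kb, 3 of 4 kb and 1 of 5 kb. They occurred on all 20 autosomes, from 109 tiles on chromosome 11 to 584 on chromosome 1. The share under 5% ran from 75.9% on chromosome 20 to 91.0% on chromosome 15, and the share of 80% or more from 0% on chromosome 11 to 4.49% on chromosome 12. Low methylation extended past the tile edge: tiles adjacent to a run averaged 14.2% ± 1.35 in hippocampal and 14.5% ± 0.928 in hypothalamic libraries (SD, n = 4; 2802 tiles), with a median of 2.33%. At 2 kb the means were 40.9% and 42.8%, at 5 kb 53.8% and 55.7%, and at 10 kb 57.8% and 59.8%. A methylated member had methylated neighbours: the median level of the adjacent tile was 1.79%, 11.3%, 52.2%, 87.1% and 95.03% for members of the 5 classes of level, from lowest to highest.

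The 3 tiles with the most dyads lay among the unmethylated ones. The tile at chr6:144476001-144477000 (coordinates of the deposited files, whose processing notes name build rn5) held 97 dyads and the promoter of Diras3, a Ras-like GTPase gene. Its levels were 2.30%, 2.35%, 4.32% and 4.24% in hippocampus and 3.002%, 1.87%, 2.89% and 2.55% in hypothalamus, although 1 of its dyads reached 46.6% in hippocampus and 41.3% in hypothalamus. The second, chr19:65441001-65442000 with 91 dyads, held the start of Slc7a5, a transporter of large neutral amino acids, with no dyad mean above 4.61% in either tissue. The third, chr3:165502001-165503000 with 90 dyads, held the Srsf6 promoter printed above, with levels of 0.316%, 0.272%, 2.42% and 2.38% in hippocampus and 0.945%, 0.0658%, 0.322% and 0.5004% in hypothalamus. In each of these 3 tiles hippocampus replicates 3 and 4 were the highest of the hippocampal libraries.

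That order held across the unmethylated class. In the 4003 tiles under 5% the CpG level was 0.810%, 0.705%, 2.85% and 2.94% in hippocampus and 1.64%, 0.785%, 1.001% and 1.60% in hypothalamus. Hippocampus replicates 3 and 4 were the highest pair in 3485 of these tiles (87.1%). Cytosines in the CHH context (H is A, C or T) and not followed by A moved with this order: in the same tiles they had 0.335%, 0.290%, 1.75% and 1.84% in hippocampus and 0.951%, 0.260%, 0.357% and 1.08% in hypothalamus. With that level subtracted in each library, the CpG level came to 0.775% ± 0.382 for hippocampus and to 0.592% ± 0.0847 for hypothalamus (SD, n = 4), and 1.10% and 1.11% in hippocampus replicates 3 and 4 still lay above the 0.415% to 0.684% of the other 6 libraries. The groups did not differ beyond the spread (two-sided exact permutation test, p = 0.429, where 0.0286 is the smallest possible). An unmethylated cytosine left unconverted by bisulfite also counts as methylated, and these levels do not tell it from methylation. The part of the CHH level in the differences between libraries was not otherwise tested.

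**Figure D2:**
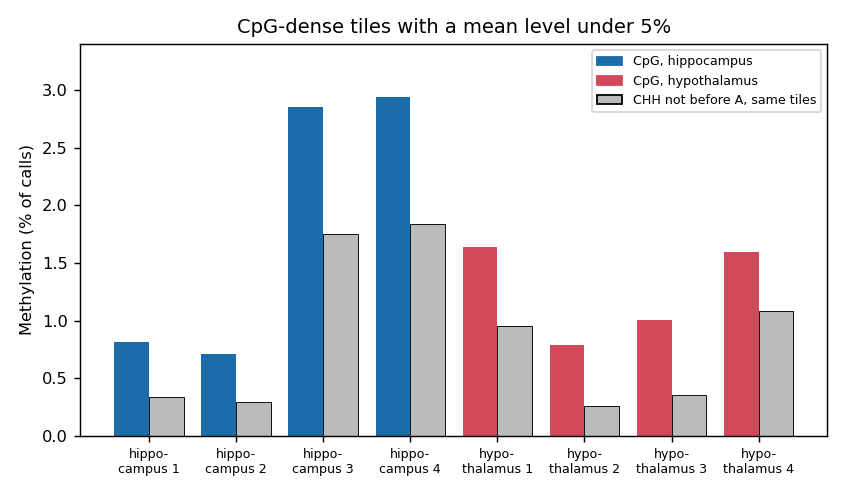
Methylation (vertical axis, % of calls) of CpGs (coloured bars) and of CHH cytosines not followed by A (grey bars) in the 4003 CpG-dense tiles under 5%, 1 pair of bars per library. Hippocampus 3 and 4 have the tallest bars of both kinds, near 2.9% and 1.8%. Any unconverted cytosines are counted in both kinds.

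Mammalian neurons carry CHH methylation mainly where the cytosine is followed by A. The CHH level, which includes any unconverted cytosines, was also lower in CpG-dense tiles than elsewhere. Over all CHH positions it was 1.01% ± 0.801 in CpG-dense tiles and 1.75% ± 0.852 in other tiles (SD, n = 8), a difference of -0.738 points in 8 of 8 libraries (two-sided exact sign-flip permutation test, p = 0.00781). Before A the levels were 1.41% and 3.04%, a difference of -1.63 points, and otherwise 0.882% and 1.20%, a difference of -0.313 points (same exact test, p = 0.00781 each).

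Summed over all CpG-dense tiles, hippocampus had 5.95% ± 1.22 and hypothalamus 5.54% ± 0.533 (SD, n = 4). This -0.405-point difference did not exceed the libraries' spread (two-sided exact permutation test, p = 0.514). Among the 4 libraries with the lower CHH level its sign turned, to 0.234 points, and among the 4 with the higher CHH level it was -1.04 points, each with 2 libraries per tissue. It also turned, to 0.139 points, with the level of all CHH positions subtracted, but kept its sign with only that of CHH not before A subtracted. These alternatives were chosen after seeing the data. With 2 libraries per tissue the exact permutation test cannot give a p under 0.333.

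Single tiles did differ, and in members with 21 to 30 dyads mostly towards higher methylation in hypothalamus. Tiles with a mean level of 5% to 95% were tested with logistic regression on their methylated and unmethylated counts, a quasi-binomial fit whose dispersion was moderated with limma. Adjustment (Benjamini-Hochberg) ran over 74539 tiles, and a call needed both an adjusted p below 0.05 and tissues 10 points or more apart. Of 715 CpG-dense tiles tested, 34 were called (4.76%, against 11.8% of all tested tiles). Of these, 30 were higher in hypothalamus (10.6% of all tested tiles were called in that direction) and 4 in hippocampus (1.26% of all tested tiles). By density, 26 rose and 1 fell in hypothalamus among 550 tested members with 21 to 30 dyads (4.91% called). With 31 to 40, 4 rose and 2 fell of 121 tested (4.96%), and with 41 to 97, 0 rose and 1 fell of 44 (2.27%). These denser classes held too few calls, 6 and 1, to show a direction. The lean towards hypothalamus was not particular to members. With 11 to 20 dyads, 517 tiles rose and 82 fell of 4981 tested, and 89.4% of all called tiles were higher in hypothalamus. At any size of difference, 126 members passed the adjusted p, 17.6% of them against 17.6% of all tested tiles, with 102 higher in hypothalamus and 24 in hippocampus. That lean, 80.95%, was close to the 83.7% among all tiles passing, and the median size among passing tiles was 7.56 points in CpG-dense tiles and 12.6 points overall. Without overlap between the tissues, 31 members were called, 4.34% of those tested, against 10.5% of all tested tiles.

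The tested members were weighted towards low levels, 62.7% of them lying at 5% to 20% against 5.97% of all tested tiles. By level, 3 of 448 members at 5% to 20% were called (0.670%, against 4.72% of other tiles of that level), 27 of 176 at 20% to 80% (15.3%, against 23.0%) and 4 of 91 at 80% to 95% (4.40%, against 3.99%). Holding more dyads, members had a median of 1937 calls per library and tile against 311.5, while calls per dyad were close (24.4 to 93.9 by library, against 23.5 to 82.5 in other tiles). Their dispersion between libraries, which equals 1 for counting error alone, had a median of 6.78 against 2.15. It rises with the calls per tile where libraries vary, so it is not a spread in points. Of all members, tested or not and mostly under 5%, 2.19% had an SD over 5 points within a tissue, against 29.0% of other tiles. The share called depended on the depth and size required: 2 of 186 members were called when dyads needed 20 calls (1.08%, against 12.6% of all tiles tested so), and 7 of 191 (3.66%), 4 higher and 3 lower in hypothalamus, when a member needed 30 dyads.

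The 5 called members of largest rise in hypothalamus without overlap lay on chromosomes 9, 10, 18 and 19, and none held a matched promoter. The largest difference was at chr9:42244001-42245000 (25 dyads). Its levels were 29.1%, 26.4%, 34.7% and 29.98% in hippocampus and 51.6%, 43.4%, 53.3% and 54.0% in hypothalamus, so every hypothalamic library lay above every hippocampal one. The difference was 20.5 points (SE 2.99, adjusted p = 0.000197 in the quasi-binomial fit). Within this tile hippocampal dyads ranged from 5.81% to 92.1%, and 23 of 25 were higher in hypothalamus. Dyads of a tile come from the same libraries, and the tiles were chosen by their difference. Counts of dyads in the named tiles therefore describe how a difference is laid out and are not separate evidence for it.

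Next came chr19:66274001-66275000 (22 dyads), with 45.9%, 37.0%, 51.3% and 45.2% in hippocampus and 64.1%, 65.2%, 71.9% and 59.2% in hypothalamus. All 22 dyads were higher in hypothalamus, and the tile difference was 20.2 points (SE 3.94, adjusted p = 0.000726 in the quasi-binomial fit). At chr18:79171001-79172000 (21 dyads) the levels were 55.3%, 50.7%, 58.7% and 55.4% against 80.01%, 71.6%, 71.7% and 77.5%. Here 20 of 21 dyads were higher in hypothalamus. At chr10:56170001-56171000 (22 dyads) they were 60.03%, 51.1%, 64.0% and 60.9% against 78.8%, 75.8%, 72.0% and 81.6%. All 22 dyads again lay higher in hypothalamus. With 20 calls per dyad the last 2 tiles differed by 20.07 and 17.5 points (adjusted p = 0.000121 and 0.00141 in the quasi-binomial fit). Such values use the dyads left at that minimum, which may number fewer than 21 in a named tile.

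The densest of the 5, chr9:82353001-82354000, held 40 dyads within 334 bases. It had 14.3%, 15.8%, 17.3% and 18.0% in hippocampus and 35.02%, 37.02%, 33.9% and 34.8% in hypothalamus, or 16.3% ± 1.66 and 35.2% ± 1.33 (SD, n = 4). The difference was 18.8 points (SE 1.06, adjusted p = 7.53e-06 in the quasi-binomial fit). It was spread over the whole stretch: all 40 dyads were higher in hypothalamus, by 9.23 to 29.0 points. In the fit per dyad 38 of them were called (9.89% of all tested dyads were called). These dyads are parts of a tile chosen for its difference, so they do not support it separately.

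The 4 members called higher in hippocampus had smaller differences, between -10.7 and -11.2 points. The tile chr6:112579001-112580000 (35 dyads within 300 bases) had 30.7%, 30.9%, 26.5% and 32.8% in hippocampus and 17.0%, 16.1%, 19.1% and 25.4% in hypothalamus. All 35 of its dyads were lower in hypothalamus, 11 of them called. Likewise all 33 dyads were lower in hypothalamus at chr6:141410001-141411000, where the levels were 34.2%, 34.3%, 29.9% and 38.4% in hippocampus and 26.7%, 21.8%, 18.7% and 25.2% in hypothalamus. The tile chr1:228790001-228791000 (42 dyads) had 29.96%, 29.1%, 29.5% and 33.7% against 22.3%, 18.2%, 16.02% and 20.7%. The last, chr10:107901001-107902000 (27 dyads), was the only highly methylated one, with 83.2%, 82.9%, 85.2% and 84.6% against 74.0%, 75.2%, 69.8% and 74.2%. These 4 calls lay near the 10-point bound, and leaving out single libraries brought 3 of them to between -9.53 and -9.95 points: chr6:112579001-112580000 without hippocampus replicate 4 or hypothalamus replicate 2, chr6:141410001-141411000 without hippocampus replicate 4 or hypothalamus replicate 3, and chr10:107901001-107902000 without hypothalamus replicate 3. With 20 calls per dyad, over the dyads left, the last fell to -4.79 points (adjusted p = 0.248 in the quasi-binomial fit).

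**Figure D3:**
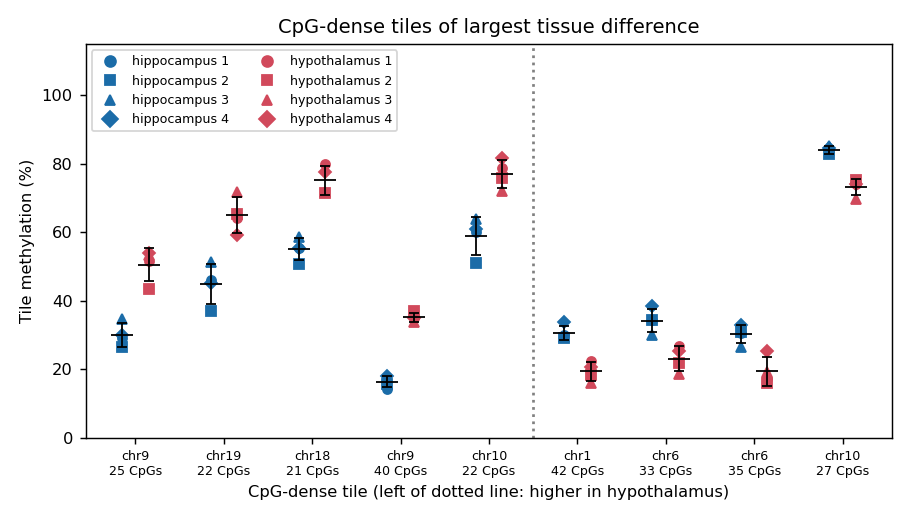
Methylation (vertical axis, %) in each library of the 5 CpG-dense tiles of largest rise in hypothalamus and the 4 called higher in hippocampus (horizontal axis, named by chromosome and number of CpGs). Points are libraries, and bars give the mean and SD of 4; the tissues do not overlap in any of the 9 tiles.

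**Figure D4:**
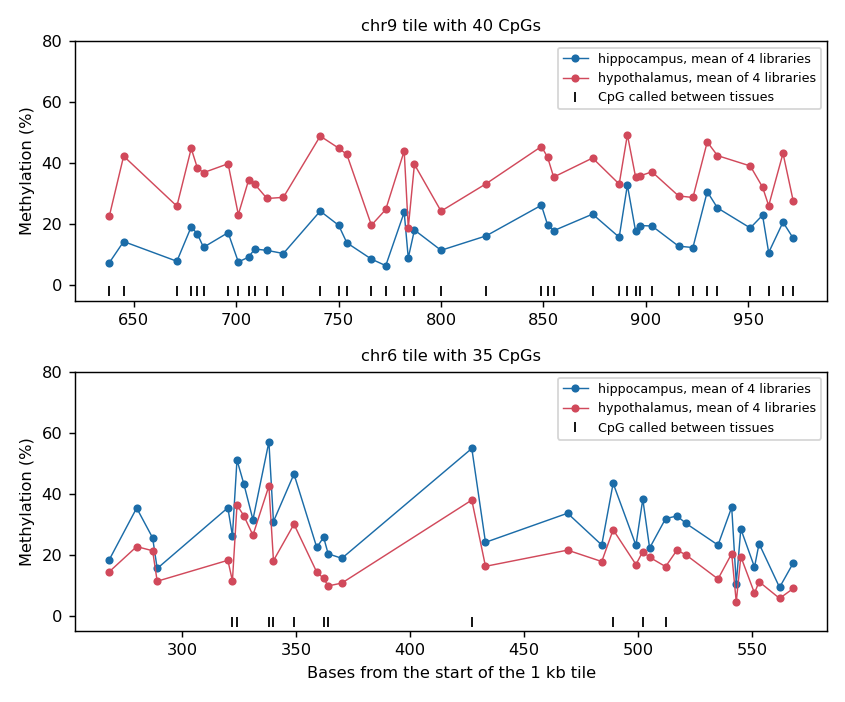
Methylation (vertical axis, %) of each CpG along 2 called tiles (horizontal axis, bases from the tile's start), as means of 4 libraries per tissue, with ticks under CpGs called on their own. The tissues keep their order at all 40 CpGs of the chromosome 9 tile and all 35 of the chromosome 6 tile. Both tiles were named for their tissue difference.

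Over all members, 1023 of 16359 tested dyads were called (6.25%, against 9.89% of all tested dyads), 863 of them higher in hypothalamus (84.4%, near the 87.4% among all called dyads). They lay in 289 tiles, of which 255 were not called as tiles and 52 had a level under 5%. The number of called dyads rested on the moderated dispersion: with each dyad's own dispersion 0 were called (2150 had an unadjusted p under 0.05).

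Members of intermediate level varied widely among their own dyads. In the 176 tiles at 20% to 80%, the median SD among a tile's dyads was 15.2 points, and the median lowest and highest dyads stood at 11.01% and 76.1%. All dyads lay between 10% and 90% in 62 of these tiles, and 10 held dyads both under 10% and over 90%. In 19 the left and right parts differed by at least 40 points. The one with the most dyads, chr12:15404001-15405000 (76 dyads), had 17.0%, 15.8%, 21.7% and 21.4% in hippocampus and 23.0%, 21.4%, 16.8% and 25.3% in hypothalamus, and these overlapped.

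A second intermediate tile, chr18:30590001-30591000 (50 dyads), had 39.0%, 37.3%, 43.3% and 41.2% in hippocampus and 33.9%, 31.7%, 31.5% and 33.7% in hypothalamus. The tissues did not overlap there, 49 of 50 dyads were lower in hypothalamus, and the adjusted p was 0.0182 in the quasi-binomial fit, but at -7.53 points it was under the size required for a call. The third, chr1:89196001-89197000 (43 dyads), overlapped, with 24.5%, 17.2%, 20.6% and 30.7% against 17.6%, 16.2%, 12.1% and 22.9%.

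The 3 members over 80% with the most dyads were not called between tissues. The tile chr12:18194001-18195000 (45 dyads) had 92.3%, 92.3%, 94.4% and 95.3% in hippocampus and 96.0%, 95.6%, 95.3% and 96.4% in hypothalamus, a difference that missed the threshold (adjusted p = 0.0769 in the quasi-binomial fit). The tile chr15:25867001-25868000 (39 dyads) had 87.0%, 79.6%, 83.2% and 86.7% against 86.5%, 82.4%, 82.9% and 87.8%, with the groups overlapping. At chr2:211292001-211293000 (45 dyads) 7 libraries lay between 91.3% and 92.3% and hypothalamus replicate 3 at 76.7%; this tile was read far more deeply than most, with 9968 to 59554 calls per library.

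Members holding promoters were less methylated than the rest. Of 33469 promoters in the RefSeq table, 6587 could be placed at a single position by matching their letters to the cytosines the files list, and 2110 of these lay in CpG-dense tiles, 1857 of protein-coding genes and 252 of long noncoding RNAs. They fell in 1705 members (35.9%), whereas 2.53% of the other tiles held a matched promoter, a contrast that the matching itself favours, since it needs successive CpGs and many known letters. Of the 2110 windows, 2050 (97.2%) were under 5%, 43 were at 5% to 20% and 17 at 20% or more. Members with a matched promoter had a lower unweighted mean of tile levels than those without, 2.08% against 8.13% (difference -6.05 points in 8 of 8 libraries, two-sided exact sign-flip permutation test, p = 0.00781). Of the 116 members at 80% or more, 1 held a matched promoter. Between tissues, 0 of the 96 tested members with a matched promoter were called, against 34 of 619 without one. The sets differed in level: 80 of the 96 lay at 5% to 20%, where 3 of 368 members without a promoter were called, and 16 at 20% or more, where 31 of 251 were. The difference between the sets was not tested. At any size of difference, 13 of the 96 passed the adjusted p, as did 17.6% of all tested tiles. Of these 13, 12 were higher in hypothalamus, the direction of 83.7% of all tiles passing.

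Around the start the level was flat. In steps of 50 bases from 250 before to 50 after it, hippocampal means lay between 1.81% and 1.96% and hypothalamic means between 1.12% and 1.40%. The promoter windows were rich in G and C, with a median of 66.3% in those under 5%, 65.0% in the 17 at 20% or more and 51.7% over all promoters of the table. The median number of CpGs in 300 bases was 28, 21 and 7, respectively.

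Motif letters were counted on both strands in these windows as a description. The GC box GGGCGG, bound by SP factors, was in 77.3% of windows under 5%, in 13 of the 17 at 20% or more and in 33.1% of all promoters. It stands in the printed Srsf6, Tdrd1, Lep and Col16a1 stretches. The TATA motif TATAAA was in 4.24% of windows under 5% and 14.2% of all promoters. CCAAT was in 36.7% and 37.5%, the E-box CACGTG in 10.4% and 6.42%, and the CRE TGACGTCA in 4.29% and 1.83%. None of these motifs holds another of them.

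Among the 17 exceptions at 20% or more, Tdrd1 was the only promoter above 80%, with 85.1%, 89.9%, 86.5% and 87.8% in hippocampus and 83.9%, 92.2%, 81.1% and 88.7% in hypothalamus over 21 dyads. The tissues overlapped fully. Tmprss12 had 64.4%, 55.2%, 59.0% and 63.3% in hippocampus and 58.0%, 53.5%, 51.8% and 59.5% in hypothalamus over 20 dyads. LOC134480864, a long noncoding RNA gene, had 62.4% ± 3.31 and 57.1% ± 1.51 (SD, n = 4). Lep had 47.98%, 48.99%, 47.97% and 48.6% in hippocampus, but 55.3%, 52.1%, 37.7% and 63.0% in hypothalamus, a much wider spread around a similar mean.

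Adss1, which encodes the muscle form of adenylosuccinate synthase, had 46.0% ± 5.21 in hippocampus and 57.3% ± 4.41 in hypothalamus over 6 dyads, but the whole tile differed by 4.03 points (adjusted p = 0.0987 in the quasi-binomial fit). Pcdhga8, a clustered protocadherin gene of neuronal adhesion, had 49.9% ± 5.94 and 48.1% ± 3.60, and the noncoding LOC103694196 in the same tile had 42.4% ± 5.11 and 37.4% ± 5.78. Krtcap3 had 45.6% ± 2.07 and 41.4% ± 3.35. Ptchd3, a patched-domain gene, had 41.7% ± 10.5 and 39.5% ± 5.18 while its whole tile of 52 dyads averaged 6.40%. Apba3, an adaptor protein gene, had 29.6% ± 5.03 and 37.1% ± 8.81 in a tile averaging 8.58%. In the last 2 the methylated window was therefore a small portion of a mostly unmethylated tile.

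**Figure D5:**
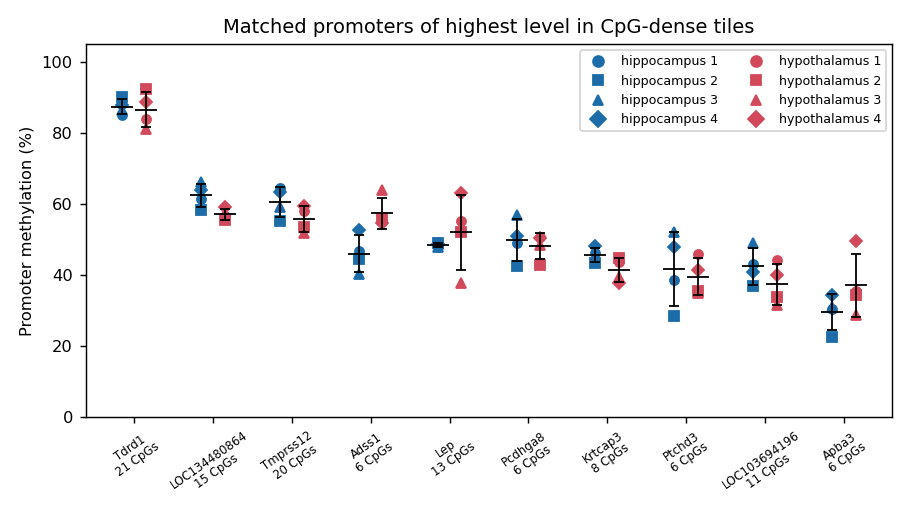
Methylation (vertical axis, %) of the 10 matched promoters of highest level in CpG-dense tiles (horizontal axis, with the number of measured CpGs). Points are libraries, and bars the mean and SD of 4 per tissue; Tdrd1 stands near 87% in both tissues, the tissue means of the others lie between 29% and 63%.

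Promoters with the largest rise in hypothalamus started from low levels in several cases. Col16a1 had 1.85%, 1.496%, 4.56% and 5.36% in hippocampus and 14.1%, 13.0%, 10.2% and 14.3% in hypothalamus, so the tissues were well apart. Its tile differed by 8.14 points (adjusted p = 0.000207 in the quasi-binomial fit), under the size required for a call, which it passed at 10.02 points when dyads needed 20 calls. LOC134483106 had 3.61%, 2.49%, 4.95% and 4.93% against 18.7%, 10.1%, 7.57% and 18.2% (tile difference 9.66 points, adjusted p = 0.000497 in the same fit). Its tile passed that size without hypothalamus replicate 2 (10.8 points) or 3 (11.7 points) and in the 4 libraries with the higher CHH level (13.5 points). Replicates 2 and 3 were its 2 lowest in hypothalamus, and those 4 libraries hold neither. These rises therefore follow from which libraries were left out. LOC120096189 had 9.48%, 9.57%, 10.996% and 9.70% against 22.8%, 14.3%, 18.6% and 27.1%. Its tile differed by 7.71 points (adjusted p = 0.00292 in the same fit) and by 10.5 in the 4 libraries with the higher CHH level. In hypothalamus those are replicates 1 and 4, the 2 highest at this promoter. Dysf, the gene of the membrane repair protein dysferlin, had 2.76%, 1.28%, 4.33% and 3.81% against 8.58%, 6.02%, 11.6% and 10.1% (tile difference 6.47 points, adjusted p = 0.000904 in the same fit). In these 4 promoters no hippocampal library reached the lowest hypothalamic one. The same held for Adss1 (highest 52.7% in hippocampus, lowest 54.5% in hypothalamus) and Fcgr2a (12.1% and 12.3%). In Apba3, Bmi1, S1pr3 and Tmem275 the tissues overlapped. All were chosen for their rise. Among tested tiles not chosen so, lack of overlap was also frequent: 14925 of all 74539 (20.02%) and 136 of the 715 members.

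Fcgr2a, an Fc receptor gene of immune cells, had 10.5% ± 1.39 in hippocampus and 16.8% ± 5.33 in hypothalamus, in a window read unusually often, with 4902 to 20581 calls per library. Bmi1, a Polycomb gene, had 4.37% ± 1.26 and 8.69% ± 2.61, and the tissues overlapped (5.998% in hippocampus replicate 3, 5.88% in hypothalamus replicate 2). S1pr3, a sphingosine 1-phosphate receptor gene, had 8.57% ± 1.64 and 13.2% ± 6.19, and Tmem275, with 1 measured dyad, 21.995% ± 4.39 and 26.0% ± 10.5; in both the tissues overlapped.

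In the other direction differences ran from -8.68 points, at Plagl1, to -3.33 points, at LOC120101515, and none of these promoters' tiles that were tested passed the adjusted p. Plagl1, an imprinted zinc finger gene, had 29.3%, 37.3%, 38.8% and 30.2% in hippocampus and 33.4%, 39.9%, 7.92% and 19.6% in hypothalamus. Its lower hypothalamic mean came from replicates 3 and 4, the libraries with fewest calls. Pdgfa, a growth factor gene, had 12.9% ± 2.44 and 7.97% ± 2.04, with a tile difference of -2.83 points (adjusted p = 0.0617 in the quasi-binomial fit). Ntn3, a netrin gene, had 9.20% ± 2.33 and 4.43% ± 2.06. Zfp518b had 11.7% ± 2.26 and 8.14% ± 2.95, Dipk1c 13.1% ± 2.85 and 8.81% ± 5.35, and LOC120101515 29.6% ± 6.99 and 26.3% ± 3.16.

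Lists of genes with known island behaviour were small once restricted to matched promoters in CpG-dense tiles. Of the members, 1 germline and 3 imprinted genes lay in tiles tested between the tissues, and the other lists had 0 tested tiles. Of 28 germline genes 1 remained, Tdrd1. Of 30 imprinted genes 4 remained: Plagl1 at 29.6%, Ndn, the gene of the neuronal growth suppressor necdin, at 15.5%, Igf2r, the receptor that clears IGF2, at 6.38%, and Inpp5f, a phosphoinositide phosphatase gene, at 0.942%, where the median of all matched promoters in CpG-dense tiles was 1.10%. Of 104 brain patterning genes 5 remained, all under 5%, as were 97.2% of all matched promoters in CpG-dense tiles: Fezf2 at 2.81%, Hoxd3 at 2.06%, Hoxd9 at 3.36%, Irx2 at 1.25% and Isl1 at 2.05%, each a transcription factor of the embryo.

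Of 17 genes of the methylation machinery 5 remained: Mbd1 and Mbd3 of the methyl-CpG-binding domain family, the demethylating enzymes Tet2 and Tet3, and the ubiquitin ligase Uhrf2. Their promoters lay between 0.551% and 1.26%, and 97.2% of all matched promoters in CpG-dense tiles were under 5%. Of 15 housekeeping genes the 4 that remained, Eef1a1, Rpl13a, Sdha and Tbp, lay between 0.764% and 1.94%. Of 41 neuron and glia genes, Gal, the neuropeptide galanin, had 2.81% and Slc1a2, the glial glutamate transporter, 1.15%. Of 16 genes of omega-3 and lipid handling, the fatty acid receptor Ppara had 1.47% and its partner Rxrb 1.31%.

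Reading depth was uneven between libraries. Median calls per dyad in CpG-dense tiles were 73.3 to 92.3 in hippocampus and 24.4 to 93.9 in hypothalamus, lowest in hypothalamus replicates 3 and 4. Listed calls per library ran from 178178404 to 625653602 over all contexts. In a library, 14.9% to 21.96% of members' dyads were listed on both strands.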

How the data were processed

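The authors made reduced representation bisulfite libraries from MspI fragments of 150 to 300 bases, per the labels' protocols; the submitters' processing notes name Bowtie and rn5, and which caller, versions or filters were used is not given in the sources used here. Deposited files of the authors list, per cytosine, the context, the methylated count and the count of all calls, and the fraction of calls methylated. The fraction column equals the ratio of the deposited counts, so the counts were used; no position had fewer than 10 calls. Strands of a CpG were summed into a dyad.

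Tiles and dyads were fitted with a quasi-binomial logistic model (Python 3.11.15, numpy 2.4.6, pandas 2.3.3) with the dispersion moderated by squeezeVar of limma 3.58.1 in R 4.3.3 and kept at 1 or more, an F test and Benjamini-Hochberg adjustment over all tested tiles or dyads of a mean level of 5% to 95%. Tested tiles held at least 3 dyads. The procedure was tested on simulated data. Levels per library were compared with exact permutation tests.

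Promoters (250 bases before to 50 after the start, GRCr8) were placed in the files by sequence, without carrying coordinates: 5 successive CpG spacings had to be shared, then at least 40 letters known from listed cytosines, 97% of them equal, at 1 place only. Of the 2110 in CpG-dense tiles, 2108 fell on the chromosome RefSeq gives.

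Named tiles are the 5 of largest difference per direction among calls without overlap, and the 3 with most dyads at any level, over 80% and at 20% to 80%. Named promoters are the 10 of highest level, the 10 of largest difference per direction and the members of the gene lists in CpG-dense tiles. The CpG at base 111 of Tdrd1, those of Lep and the printed promoters were chosen after their values were seen. Members and lists were chosen with earlier results of these data known. Alternatives were other call minimums, dyad minimums, tile offsets, level ranges, difference bounds, dispersions and strands, a replicate block, edgeR 4.0.16, limma on logit levels, and leaving out each library. In tested tiles the median dispersion, 2.15 over all and 6.78 in members, was above the 1 of counting error alone. Untested tiles and promoter windows had no dispersion of their own, and some windows held few calls, such as Tmem275 with 23 to 87 per library. X, Y and unplaced sequences were left out.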

Additional observations from a re-analysis of the deposited data

Results flagged for a closer look

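In 134 groups of 4 libraries, 5 values lay far from the other 3 of their tissue by Dixon's criterion, which chance passes about 1 time in 20 groups, or 6.7 times here. The tile chr2:211292001-211293000 had 76.7% in hypothalamus replicate 3 against 91.3% to 92.3% in the other 3. The LOC120096189 promoter had 10.996% in hippocampus replicate 3 against 9.48% to 9.70%. The Adss1 promoter had 63.9% in hypothalamus replicate 3 against 54.5% to 55.9%. In hypothalamus replicate 1 the Hoxd9 promoter had 5.09% against 2.49% to 2.87%, and the Ndn promoter 13.2% against 16.2% to 16.8%.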

How the results depend on the processing

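The comparison of CpG-dense with other tiles, the CHH comparison and the promoter comparison kept their direction and their side of the threshold under every alternative run. The share of members under 5% was 73.8% with at least 15 dyads, 90.4% with at least 30 and 88.7% with 20 calls per dyad. Leaving out each library in turn gave -51.1 to -50.5 points for CpG-dense against other tiles, 84.0% to 84.7% of members under 5%, -0.759 to -0.716 points for CHH and -6.09 to -5.99 points for promoter tiles. It gave -0.814 to -0.0532 points for the level by tissue and 30 to 40 called tiles (4.24% to 5.57% of members tested, against 10.1% to 12.8% of all tiles). Called dyads were 762 to 1103, and the share over all dyads was not counted. Alternatives chosen after seeing the data changed the level by tissue: it was -0.0214 points with the level of CHH not before A subtracted (exact permutation p = 0.914) and reversed to 0.139 points with that of all CHH (exact permutation p = 0.4). It reversed to 0.234 points among the 4 libraries with the lower CHH level (exact permutation p = 0.667) and was -1.04 among the 4 with the higher one (p = 0.333, the smallest possible). In the 4 libraries with the lower CHH level 35 tiles were called (5.38% of members tested, against 9.20% of all tiles). In the 4 with the higher CHH level 27 were called (3.32%, against 6.58%). There 4 of the 9 named called tiles missed the threshold (adjusted p of 0.0545 to 0.178, quasi-binomial fit) with their directions kept.

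The count of called tiles was 34 and became 2 with 20 calls per dyad (1.08% of members tested, against 12.6% of all tiles), 211 with at least 15 dyads (9.58%, against 11.8%), 7 with at least 30 dyads (3.66%, against 11.8%), 102 at 5 points (14.3%, against 16.7%) and 3 at 20 points (0.420%, against 2.92%). It was 43 with tiles shifted by 500 bases (6.19%, against 11.8%) and 33 at levels of 1% to 99% (0.795% of 4150 tested, against 8.19%). With each tile's own dispersion it was 23 (3.22%, against 6.84%), with edgeR 35 (4.90%, against 11.7%) and with limma 32 (4.48%, against 11.1%). With 1 strand per dyad it was 31 (4.37%, against 11.7%). Called dyads were 1023 of 16359 tested (6.25%, against 9.89% of all dyads). They became 223 of 4245 with 20 calls, 278 of 16359 at 20 points and 0 with each dyad's own dispersion (2150 at an unadjusted p under 0.05). The share over all dyads was not counted for these settings. Fewer tiles were tested at 20 calls and at 30 dyads, and fewer dyads at 20 calls. The causes of the changes in count and share were not tested.

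Same-numbered libraries deviated together with r of 0.44, 0.20, 0.08 and 0.38 over 715 members, and hippocampus replicate 3 correlated best with hypothalamus replicate 1 (0.11), while over all 74539 tested tiles each library correlated best with its own number, with r of 0.167, 0.0675, 0.0886 and 0.170. As 1 of the 4 same-numbered values was under 0.1 and the labels state no pairing, the numbers were not taken as pairing. With the replicate block 188 members passed the adjusted p at any size, against 126, and 36 tiles (5.03%, against 13.1% of all tiles) and 1317 dyads were called, and the level by tissue had an exact p of 0.5. The minimum of 10 calls in every library, set by the least read library, limits which CpGs and tiles could be seen.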

Other observations

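Some CpG-dense tiles differed more between libraries of a tissue than between tissues. The widest, chr4:177335001-177336000 (21 dyads), had 68.7%, 89.1%, 67.9% and 39.8% in hippocampus and 70.7%, 90.6%, 87.5% and 49.2% in hypothalamus. The tissues overlapped there (adjusted p = 0.451 in the quasi-binomial fit). At chr20:3940001-3941000 (25 dyads) the levels were 49.4%, 10.7%, 14.0% and 25.8% in hippocampus and 50.7%, 38.4%, 15.9% and 24.2% in hypothalamus. The neighbouring tiles chr1:13503001-13504000 and chr1:13504001-13505000 had 39.1% to 71.6% and 45.1% to 73.3% in hippocampus, and 38.8% to 69.9% and 38.4% to 69.1% in hypothalamus; they were read unusually often, with 3504 to 30884 and 15921 to 72653 calls per library. At chr6:146728001-146729000 (21 dyads) 7 libraries lay between 10.2% and 19.7% and hypothalamus replicate 3 at 42.1%. Of all CpG-dense tiles, 10 had an SD over 10 points within a tissue (0.211%, against 4.06% of other tiles).

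A few members were read far more often than the rest. The 9 tiles with over 500 calls per dyad took 3.38% of the calls in CpG-dense tiles, and their levels ran from 1.19% to 89.99% with a median of 13.1%. Without them the level by tissue differed by -0.475 points (two-sided exact permutation test, p = 0.486).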
